A study of Homo sapiens with 6 samples.

Results

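The mRNA levels of 8 genes of cholesterol synthesis were examined in bladder cancer cells in which the long noncoding RNA LNMAT1 was silenced. The 8 genes were picked by symbol out of 50868 genes with values. HMGCS1, IDI1, FDFT1, SQLE, LSS and DHCR7 encode enzymes of the pathway, and SREBF2 and INSIG1 encode its regulators. Uptake genes are often listed together with these, but none of the 8 encodes an uptake receptor. The level is given in FPKM, the number of fragments scaled for transcript length and for the size of the library.

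UM-UC-3 and 5637, a pair of established human bladder cancer cell lines, had each been infected with a lentivirus that carried a control hairpin (sh-NC) or a hairpin against LNMAT1 (sh-LNMAT1#1 or sh-LNMAT1#2). All 6 groups therefore shared the infection, polybrene and a selection with puromycin, and each group was a stable line sequenced as 1 library. The 5637 cells grew in RPMI 1640 and the UM-UC-3 cells in DMEM, so that line and medium cannot be told apart. The study asked which genes depended on LNMAT1, and with 1 library per group no difference within a line could be tested.

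Cholesterol is built from acetyl-CoA by way of mevalonate, isoprenoid units, squalene and lanosterol. The genes of the pathway are switched on by SREBP2, the product of SREBF2, which is held in the endoplasmic reticulum by SCAP and INSIG proteins when sterols are plentiful. When sterols fall short, the released SREBP2 fragment enters the nucleus and binds sterol regulatory elements, often beside boxes for the factors NF-Y and Sp1. INSIG1 is itself a target of SREBP2 and so closes a feedback loop. Tumour cells use the pathway for membranes and for the isoprenoids that anchor signalling proteins.

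The promoters of these genes are shown because the pathway is known for sterol regulatory elements, often with NF-Y and Sp1 boxes nearby. In the RefSeq promoter table (GRCh38.p14, 250 bases before to 50 after each start), 6 of the 8 genes were matched, with 10 windows in all. SQLE and FDFT1 were not matched. The NF-Y box CCAAT was found on either strand in 7 of the 10 windows, at least 1 for each matched gene, and in 34.6% of all 35116 promoters. The GC box GGGCGG, read by Sp1, was likewise found in 9 of 10 windows and in 45.0% of all promoters. The sterol regulatory core TCACNCCAC was found in 1 of 10, that of SREBF2 itself, and in 1.13% of all promoters. Only these exact letters were searched, so a window without a match is not shown to lack a sterol regulatory element. A stretch with NF-Y boxes follows for each gene, which need not hold every box of that gene, 5′ to 3′ on the strand of the gene, with CCAAT or its reverse complement ATTGG, and in SREBF2 also the sterol core, in capitals.
SREBF2 (chr22:41832952-41833023, plus strand): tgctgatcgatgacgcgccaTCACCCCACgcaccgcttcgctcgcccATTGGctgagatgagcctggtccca
INSIG1 (chr7:155297688-155297732, plus strand): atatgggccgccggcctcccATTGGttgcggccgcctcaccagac
HMGCS1 (chr5:43313543-43313587, minus strand): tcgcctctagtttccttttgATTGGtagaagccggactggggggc
IDI1 (chr10:1049212-1049354, minus strand): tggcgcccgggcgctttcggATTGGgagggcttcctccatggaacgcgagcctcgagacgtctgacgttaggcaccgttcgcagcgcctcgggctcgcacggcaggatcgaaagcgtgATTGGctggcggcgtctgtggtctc
LSS (chr21:46228900-46228944, minus strand): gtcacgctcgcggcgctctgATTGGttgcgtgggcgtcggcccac
DHCR7 (chr11:71448436-71448507, minus strand): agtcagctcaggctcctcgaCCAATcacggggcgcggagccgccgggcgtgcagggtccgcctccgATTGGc
Pairs of NF-Y boxes lay in the stretches of IDI1 and DHCR7 and in the window of HMGCS1, where 1 of them is outside the stretch shown. Another IDI1 window, not shown, held 3 more. In SREBF2 the sterol core lay upstream of the NF-Y box. The capitals are matches of letters only.

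Before the levels were compared, the libraries were set beside their labels. Depth, read from single-exon genes, ranged from 19380000 to 24711000 fragments, with UM-UC-3 sh-NC the deepest. The targeted gene itself, LINC01296, measured 14.2 FPKM in UM-UC-3 sh-NC, 6.20 with sh-LNMAT1#1 and 6.70 with sh-LNMAT1#2. It was at 11.7, 4.70 and 2.14 FPKM in the libraries labelled 5637 in the same order. The library labelled 5637 sh-NC stood apart from its label. Its log2(FPKM + 0.5) values over 12717 genes correlated with those of UM-UC-3 sh-LNMAT1#1 at Pearson r = 0.985, and with those of the 5637 knockdown libraries at only 0.617 and 0.622. Of 8 epithelial marker genes, 7 reached 1 FPKM in either 5637 knockdown library, with summed levels of 266 and 371 FPKM. None of the 8 did so in the 3 UM-UC-3 libraries or in the library labelled 5637 sh-NC, with sums between 0.254 and 0.467 FPKM, and CDH1, EPCAM and KRT5 were among the genes below that level. The sum of 8 mesenchymal markers lay between 165 and 400 FPKM in those 4 libraries and at 126 and 121 FPKM in the 5637 knockdown libraries. VIM was at 103 FPKM or more in those 4 libraries and at 3.85 and 4.14 in the 5637 knockdown libraries, whereas FN1 was at 2.27 FPKM or less in the 4 and at 109.6 and 102 in the others. TWIST1 was likewise higher in the 5637 knockdown libraries, at 4.17 and 2.26 FPKM. The pooled fit is therefore given with and without the library labelled 5637 sh-NC.

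All 8 genes were expressed in every library and all 8 passed the filter of a mean of 1 FPKM. The lowest single value was that of LSS in the library labelled 5637 sh-NC, 2.39 FPKM, which corresponds to 27.7 to 388 fragments depending on the transcript counted. DHCR7, the reductase of a last step of cholesterol synthesis, and SREBF2 had the highest mean levels over the libraries on this scale per length, and INSIG1 and LSS the lowest. UM-UC-3 sh-NC held the highest level of the 6 libraries in 7 of the 8 genes, whereas 16.4% of all 12717 genes peaked there. It held the lowest level in 0 of the 8, against 15.8% of all genes. INSIG1 was the exception, with its peak in 5637 sh-LNMAT1#1. The genes differed in how far they ranged, and the highest level was 3.76 times the lowest for DHCR7 and 3.30 times for HMGCS1, but 1.43 times for SQLE. In cells measured in bulk, fewer cells of a kind and less RNA per cell cannot be told apart.

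**Figure D1:**
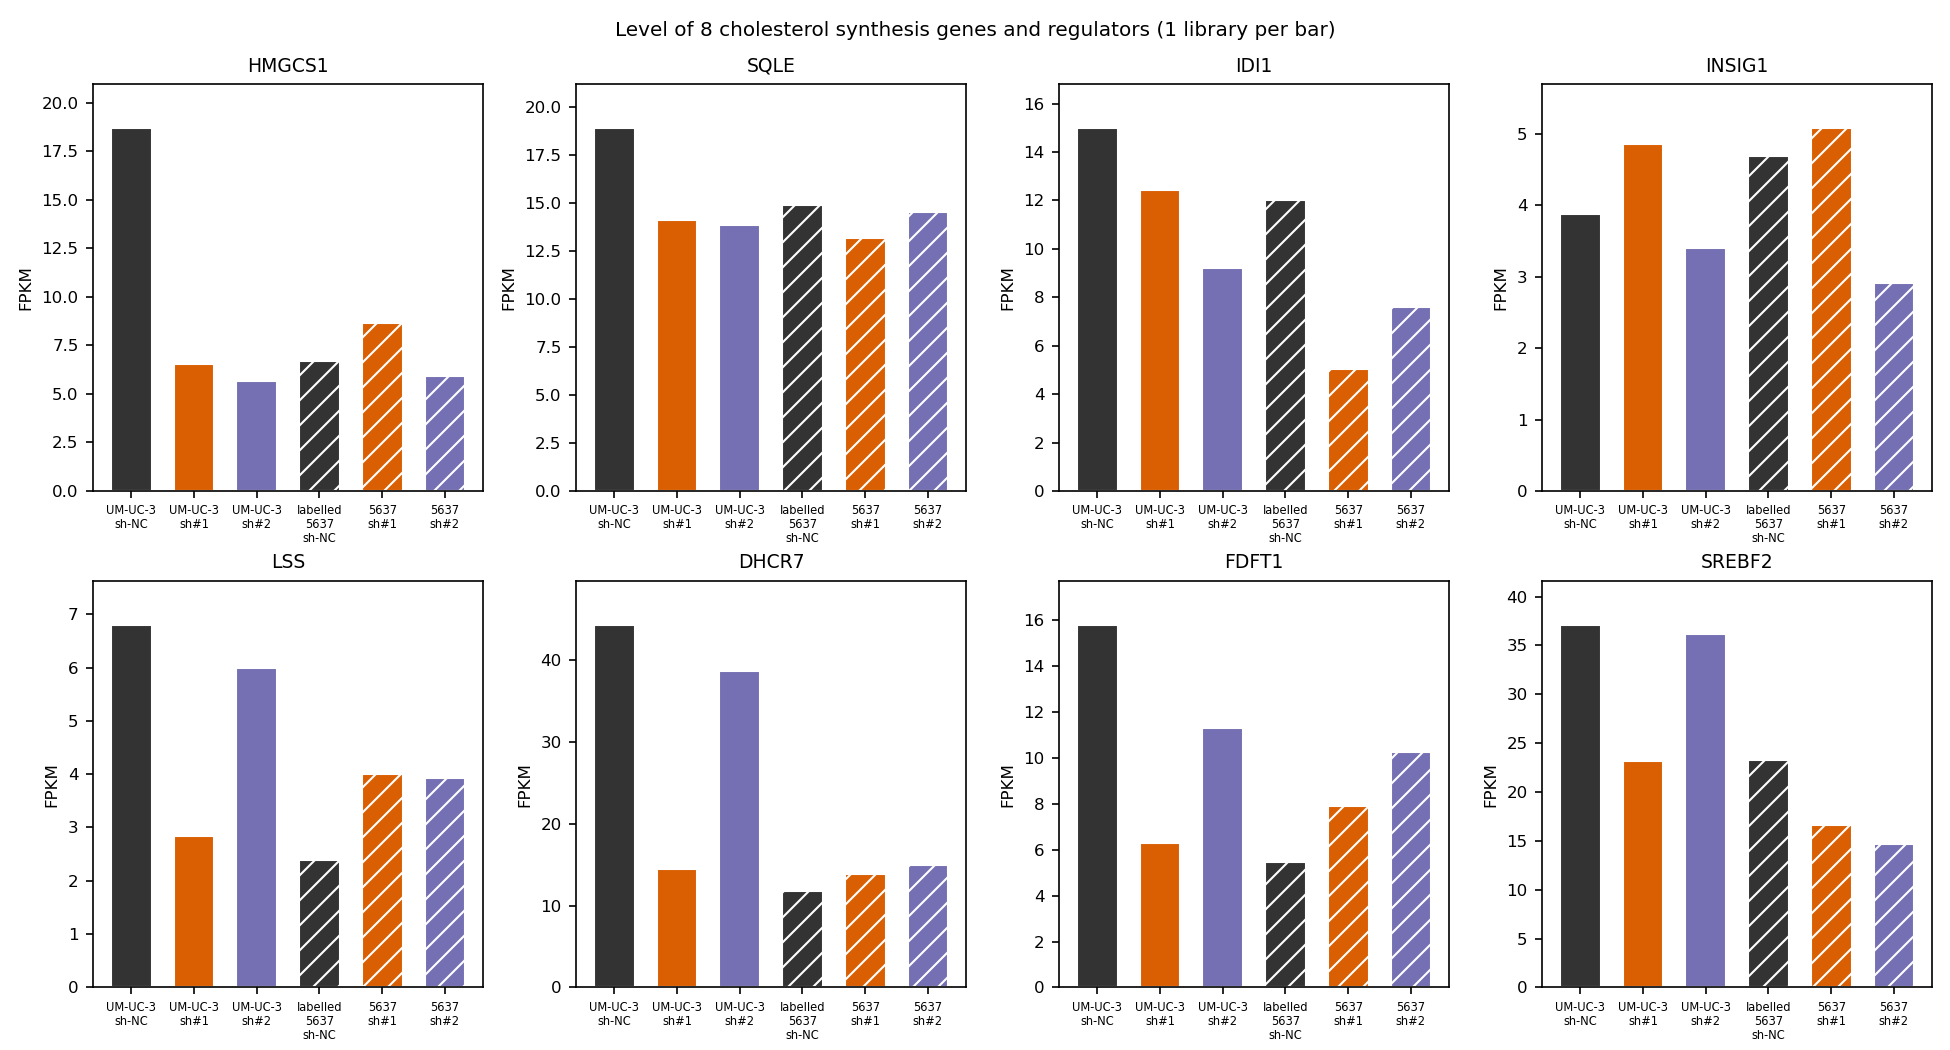
Level in FPKM (vertical axes, from 0) of each of the 8 genes in the 6 libraries, 1 bar per library; grey bars are sh-NC, orange sh-LNMAT1#1 and purple sh-LNMAT1#2, and hatched bars carry a 5637 label. The first bar, UM-UC-3 sh-NC, is the tallest in 7 of the 8 panels, and INSIG1 is the exception.

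In UM-UC-3, HMGCS1 stood out among the 8 genes. It encodes the synthase that makes HMG-CoA, the substrate from which mevalonate is formed, and lies at chr5:43289395-43313512 on the minus strand (GRCh38). It measured 18.7 FPKM in sh-NC, 6.56 with sh-LNMAT1#1 and 5.66 with sh-LNMAT1#2. Both knockdown libraries were thus low, 2.85 and 3.30 times below the control. It was the 1 gene of 8 that was at least 2-fold lower with both hairpins on the log2(FPKM + 0.5) scale, where 0.358% of 12025 genes were. In the direction of a higher level 0 of 8 passed this limit, against 1.08% of all genes. With 1 library per construct, the difference has no replicate check. The library labelled 5637 sh-NC, which carried the marker pattern of UM-UC-3, held LINC01296 at 11.7 FPKM. HMGCS1 was at 6.70 FPKM there, near the knockdown libraries and not near UM-UC-3 sh-NC. The cause was not tested.

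LSS, DHCR7 and FDFT1 were lower with sh-LNMAT1#1 than with sh-LNMAT1#2. LSS, the cyclase that forms lanosterol (chr21:46188141-46228824, minus strand), was at 6.81 FPKM in sh-NC, 2.83 with sh-LNMAT1#1 and 5.999 with sh-LNMAT1#2. DHCR7 (chr11:71428193-71452868, minus strand) was at 44.4, 14.5 and 38.8 FPKM in the same order. FDFT1, the squalene synthase that commits the pathway to sterols, was at 15.8, 6.29 and 11.3 FPKM. In all 3 the sh-LNMAT1#1 library was the low one, by 2.40, 3.05 and 2.51 times, while with sh-LNMAT1#2 they were 1.13, 1.15 and 1.40 times below the control. Together with HMGCS1, 4 of 8 genes were at least 2-fold lower with sh-LNMAT1#1, where 5.31% of all genes were. With sh-LNMAT1#2 it was 1 of 8, against 1.41% of all genes. At least 2-fold higher were 0 of 8 with either hairpin, against 5.55% of all genes with sh-LNMAT1#1 and 2.1% with sh-LNMAT1#2. Over all genes, the sh-LNMAT1#1 library differed more widely from the control, with 1305 genes at least 2-fold apart in either direction against 422 for sh-LNMAT1#2, and it is the library that the one labelled 5637 sh-NC resembled. The part of that wider difference in these values was not tested. In the library labelled 5637 sh-NC, LSS was at 2.39, DHCR7 at 11.8 and FDFT1 at 5.48 FPKM, each below its level in UM-UC-3 sh-LNMAT1#1.

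SQLE, IDI1 and the regulators differed less. SQLE, the epoxidase that acts on squalene and limits the rate of the later pathway, was at 18.9 FPKM in sh-NC, 14.1 with sh-LNMAT1#1 and 13.8 with sh-LNMAT1#2. IDI1, the isomerase that readies isoprenoid units for joining (chr10:1039908-1049170, minus strand), was at 15.0, 12.4 and 9.19 FPKM. SREBF2 (chr22:41833079-41907308, plus strand) was at 37.1, 23.2 and 36.1 FPKM. The control was above both knockdown libraries in all 3, although for SREBF2 with sh-LNMAT1#2 by only 0.04 on the log2 scale. INSIG1 (chr7:155297776-155310235, plus strand) was at 3.88, 4.86 and 3.41 FPKM, so that the control lay between the knockdown libraries. Across the group, 7 of 8 genes were lower than the control with both hairpins to any extent, as were 31.6% of all genes. The median log2 difference, averaged over hairpins, was -0.56 for the 8 genes and 0.00 for all genes.

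The other enzymes of sterol synthesis were given the same count in UM-UC-3. Of 14 that passed the filter, 12 were lower than sh-NC with sh-LNMAT1#1, against 50.4% of all genes, and 8 with both hairpins, against 31.6%. Of the 14, 0 were at least 2-fold lower with both, against 0.358% of all genes. At least 2-fold lower with sh-LNMAT1#1 were 6 of the 14, against 5.31% of all genes. With sh-LNMAT1#2 it was 1, SC5D, against 1.41% of all genes. The median log2 difference of the 14 was -0.92 with sh-LNMAT1#1 and -0.61 with sh-LNMAT1#2. ACAT2, which joins acetyl-CoA units at the head of the pathway and was chosen after its values were seen, was at 31.3 FPKM in sh-NC, 8.84 with sh-LNMAT1#1 and 19.7 with sh-LNMAT1#2. Of 8 genes of uptake, transport and storage, 1 was at least 2-fold lower with both hairpins, STARD4, a carrier of sterol between membranes. Its level, given after the values were seen, was 5.53, 1.89 and 2.44 FPKM in the same order. None of 7 sterol regulators and 0 of 8 genes of fatty acid synthesis passed that limit with both hairpins in UM-UC-3. Of all genes 0.358% passed it, so a count of 0 in lists this short is no contrast with HMGCS1.

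**Figure D2:**
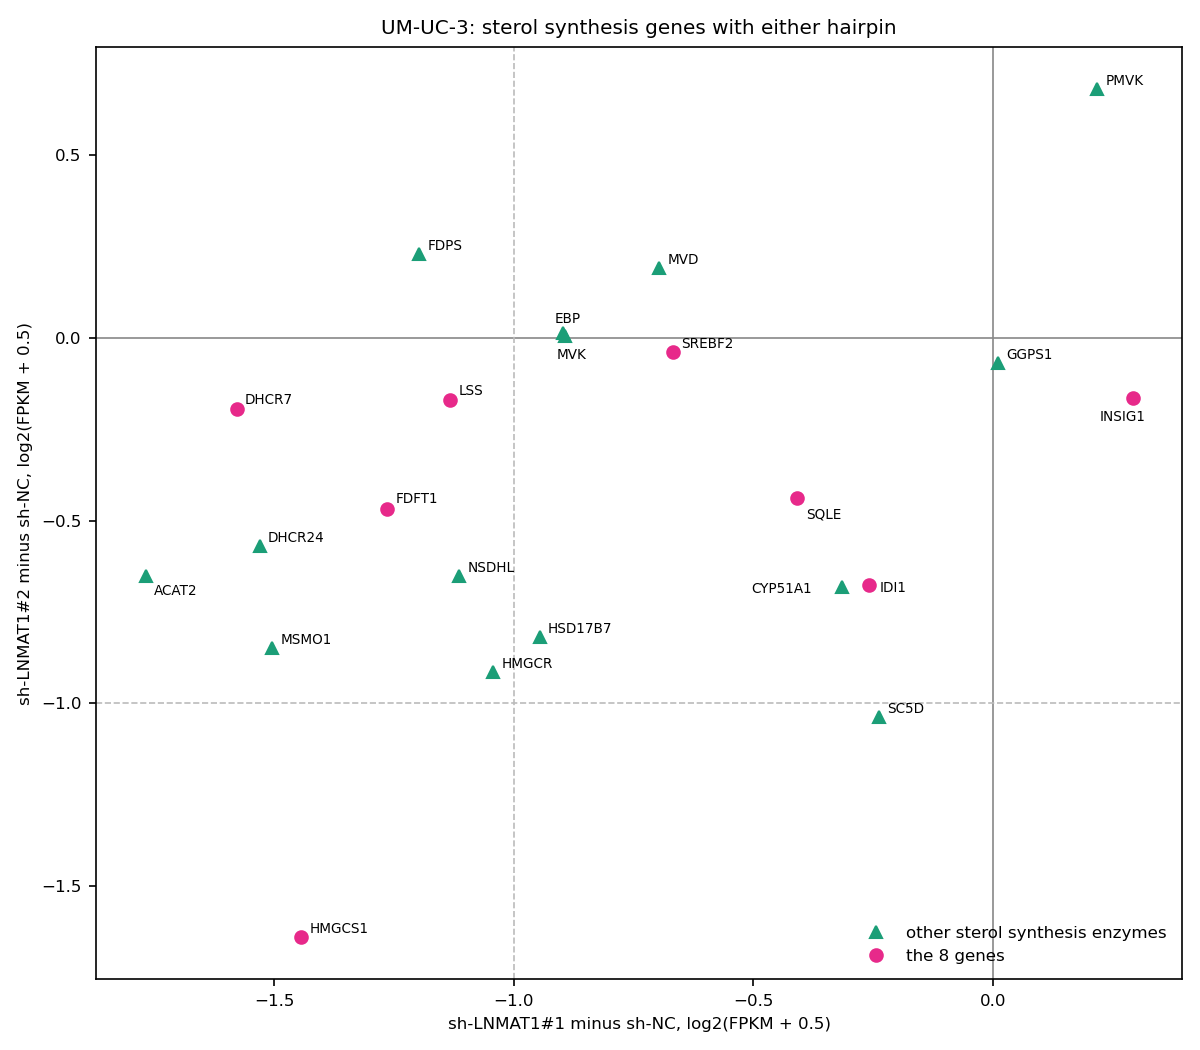
Difference from UM-UC-3 sh-NC in log2(FPKM + 0.5) with sh-LNMAT1#1 (horizontal axis) and sh-LNMAT1#2 (vertical axis), 1 library each; pink circles are the 8 genes, green triangles the 14 other sterol synthesis enzymes, and dashed lines mark 2-fold lower. HMGCS1 is the 1 gene below 2-fold on both axes, and DHCR7, LSS and FDFT1 lie to the left of the vertical dashed line only.

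In 5637, the knockdown libraries were set against the library labelled 5637 sh-NC, and 0 of 8 genes were at least 2-fold lower or higher with both hairpins, where 12.3% of 12791 genes were lower and 18.5% higher. IDI1 measured 12.0 FPKM in that reference library, 5.03 with sh-LNMAT1#1 and 7.58 with sh-LNMAT1#2. It was the 1 gene of 8 at least 2-fold lower with sh-LNMAT1#1, against 15.3% of all genes, and with sh-LNMAT1#2 it was 0 of 8, against 15% of all genes. At least 2-fold higher were 0 of 8 with either hairpin, against 21.5% of all genes with sh-LNMAT1#1 and 20.2% with sh-LNMAT1#2. HMGCS1 was at 6.70, 8.67 and 5.93 FPKM, so that the library labelled sh-NC lay between the others. SREBF2 was at 23.3, 16.6 and 14.6 FPKM and SQLE at 14.9, 13.2 and 14.5 FPKM, both lower with either hairpin.

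LSS, DHCR7 and FDFT1 lay the other way. LSS measured 2.39 FPKM in the reference, 4.00 with sh-LNMAT1#1 and 3.94 with sh-LNMAT1#2. DHCR7 was at 11.8, 13.9 and 15.0 FPKM and FDFT1 at 5.48, 7.90 and 10.3 FPKM. INSIG1 was at 4.69, 5.08 and 2.91 FPKM. In sum, 3 of 8 genes were lower with both hairpins and 3 were higher with both. Of all genes, 42.8% were lower with both and 48.3% higher with both. The median log2 difference averaged over hairpins was -0.01 for the 8 genes and 0.06 for all genes. The reference library carried the marker pattern of UM-UC-3, and knockdown and line cannot be told apart in these values.

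**Figure D3:**
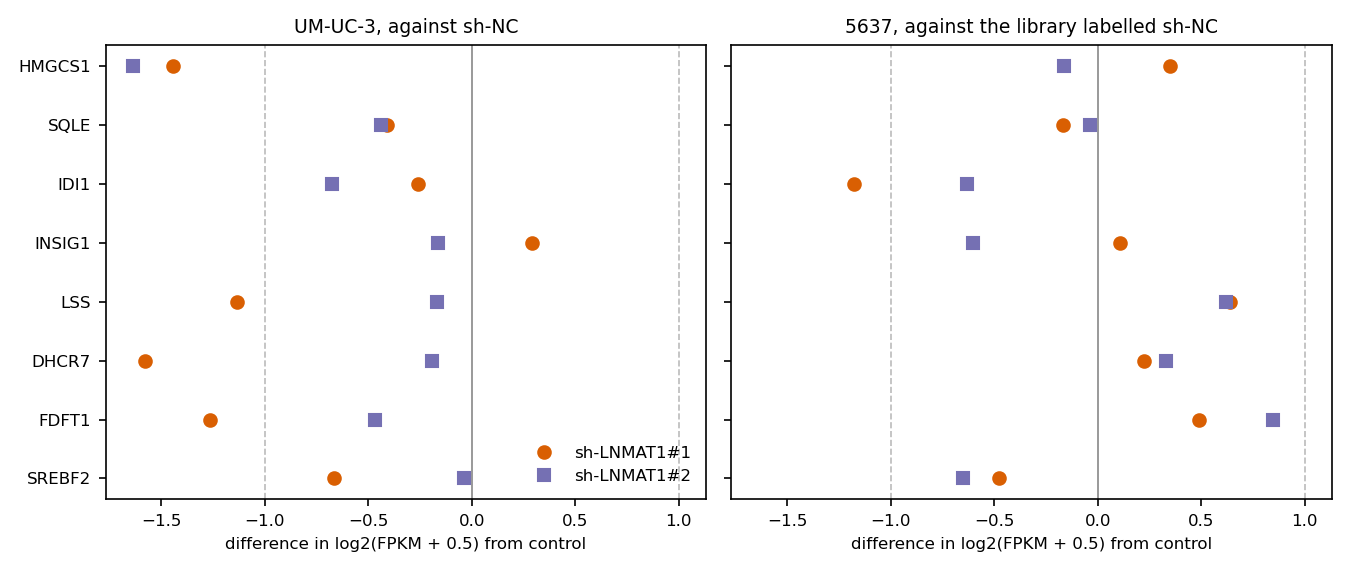
Difference in log2(FPKM + 0.5) of each knockdown library from the library labelled sh-NC (horizontal axis) for the 8 genes, in UM-UC-3 (left) and 5637 (right); orange circles are sh-LNMAT1#1, purple squares sh-LNMAT1#2, and dashed lines mark 2-fold. On the left 7 of 8 genes have both points below 0, and on the right 3 have both below and 3 both above.

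Both lines were also fitted together, with 4 knockdown libraries against 2 labelled sh-NC and the cell line as a covariate, by limma with Benjamini-Hochberg adjustment. None of the 8 genes was called, as 0% of 12717 genes were at an adjusted p of 0.05, although 811 genes (6.38%) had an unadjusted p below that level, 0 of the 8 among them. All 8 estimates were negative, with a median of -0.28 against -0.02 for all genes. LSS (-0.01 ± 0.41, SE), INSIG1 (-0.09 ± 0.30, SE) and FDFT1 (-0.10 ± 0.44, SE) lay near 0. The 8 signs share the same 2 libraries labelled sh-NC and are not separate observations. HMGCS1 differed by a log2 value of -0.72 ± 0.42 (SE, limma adjusted p = 0.573) and IDI1 by -0.69 ± 0.28 (SE, limma adjusted p = 0.569). Without the library labelled 5637 sh-NC the estimate for HMGCS1 was -1.54 ± 0.31 (SE, limma adjusted p = 0.680) and rested on UM-UC-3 alone. In that fit IDI1 was at -0.47, SQLE at -0.42, LSS at -0.65, DHCR7 at -0.89, FDFT1 at -0.87 and SREBF2 at -0.35 on the log2 scale. INSIG1 turned to 0.063, and 0 of 8 were called. Without UM-UC-3 sh-NC, which leaves the library labelled 5637 sh-NC as the only control, the HMGCS1 estimate was 0.09 ± 0.31 (SE). LSS, DHCR7 and FDFT1 also turned positive there, at 0.63, 0.28 and 0.67. IDI1, SREBF2, INSIG1 and SQLE were at -0.90, -0.56, -0.25 and -0.10 in that fit.

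The cell lines were compared through the 4 knockdown libraries, 2 of each line, which leaves out the library labelled 5637 sh-NC. By limma 0 of the 8 genes were called, while 38.5% of 12844 genes were, 20.1% higher and 18.4% lower in 5637. At an unadjusted p of 0.05, 2 of the 8 passed, SREBF2 and IDI1, against 49.2% of all genes. SREBF2 was lower in 5637, at 16.6 and 14.6 FPKM against 23.2 and 36.1 in UM-UC-3, by 1.83-fold (log2 -0.87 ± 0.27, SE, 95% interval -1.55 to -0.20, limma adjusted p = 0.0523). SREBF2 was lower in 5637 under all 13 alternatives and passed the threshold in 4 of them. Among these were 75th-percentile scaling, where 38.6% of all genes were called, and 3 UM-UC-3 libraries, where 42.9% were. The fit without UM-UC-3 sh-LNMAT1#1, also among them, rests on a lone UM-UC-3 library. With the hairpin number as a block, which pairs the libraries across lines and leaves 1 residual degree of freedom, it passed (limma adjusted p = 0.0367), in a fit that called 40.9% of all genes. IDI1 was at 5.03 and 7.58 FPKM in 5637 and at 12.4 and 9.19 in UM-UC-3 (log2 -0.74 ± 0.28, SE, limma adjusted p = 0.0897).

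Of the remaining 6 genes, 5 had estimates near 0, with intervals that still allow a sizeable difference. SQLE differed by a log2 value of -0.01, with a 95% interval from -0.49 to 0.46. For HMGCS1 the difference was 0.22 with an interval from -0.42 to 0.85, and for FDFT1 0.09 with an interval from -0.73 to 0.91. LSS differed by -0.06 (-0.94 to 0.83) and INSIG1 by -0.07 (-0.88 to 0.74). DHCR7 differed by more and had the widest interval, -0.70 (-1.86 to 0.46), since its UM-UC-3 levels of 14.5 and 38.8 FPKM lay far apart while the 5637 levels were 13.9 and 15.0 FPKM. The DHCR7 difference was -1.40 ± 0.16 without UM-UC-3 sh-LNMAT1#1 (SE, limma adjusted p = 0.00951), in a fit that called 40.5% of 12745 genes. It was -0.011 ± 0.16 without UM-UC-3 sh-LNMAT1#2 (SE, limma adjusted p = 0.960). In both fits the lone UM-UC-3 library is assumed to vary like those of 5637.

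Genes around the pathway were compared between lines in the fit of the 4 knockdown libraries, which called 38.5% of 12844 genes. Of the 14 other enzymes, 2 were higher in 5637 than in UM-UC-3, EBP and HSD17B7, and 1 was lower, CYP51A1. EBP, the isomerase of a late sterol step, was at 17.8 and 16.3 FPKM in the 5637 knockdown libraries and at 2.46 and 5.06 in those of UM-UC-3, 4.33-fold higher (limma adjusted p = 0.00714). FDPS, the synthase just before FDFT1, was at 16.5 and 16.6 FPKM against 4.57 and 13.1 and was not called (limma adjusted p = 0.140). Of 8 regulators, INSIG2, the second INSIG protein, was 3.07-fold higher in 5637 (limma adjusted p = 0.00772) and NFYC, a subunit of NF-Y, 2.71-fold lower (limma adjusted p = 0.0202). INSIG2 was at 1.26 and 0.672 FPKM in UM-UC-3 and passed the filter only through its 5637 levels of 3.92 and 3.89.

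Transport, efflux and fatty acid genes were counted beside the 38.5% of all genes called. Of 8 tested genes of uptake, transport and storage, 2 were higher in 5637 and 3 lower. The higher ones were SCARB1, a receptor for high-density lipoprotein, by 2.76-fold (limma adjusted p = 0.00725) and NPC2, which moves cholesterol out of lysosomes, by 2.35-fold (limma adjusted p = 0.00581). Of 4 tested efflux genes 3 were higher, ABCA1, ABCG1 and APOE. These 3 passed the filter only through the 5637 libraries, where they are high, so their calls are no comparison for the 8 genes. In the UM-UC-3 libraries alone 1 of the 5 listed efflux genes passed it. ABCA1, an exporter of cholesterol, was at 11.6 and 16.8 FPKM in 5637 and at 0.657 and 0.405 in UM-UC-3 (limma adjusted p = 4.85e-04). ABCG1, a related exporter, was at 6.14 and 6.35 FPKM against 0.102 and 0.00583 (limma adjusted p = 2.97e-04). Of 8 fatty acid genes 4 were higher and 0 lower, among them FADS2 by 4.76-fold (limma adjusted p = 0.00325) and FASN, the fatty acid synthase, by 2.97-fold (limma adjusted p = 0.00898). That these groups and the 8 genes differ from one another in this respect was not tested.

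**Figure D4:**
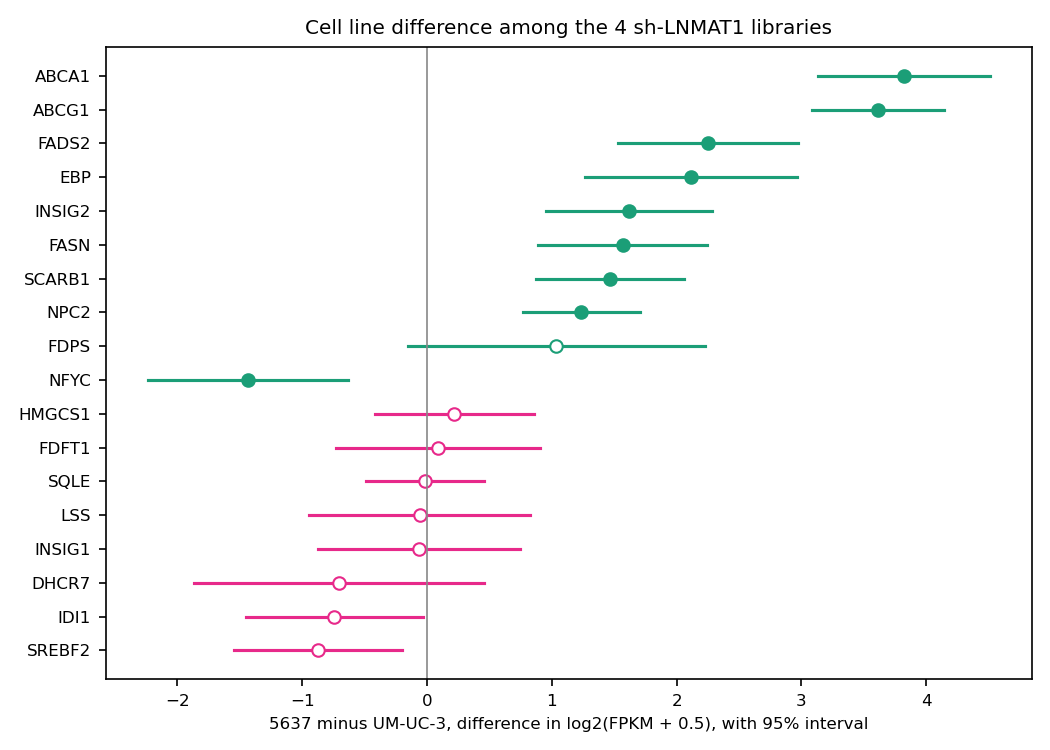
Difference between 5637 and UM-UC-3 among the 4 knockdown libraries in log2(FPKM + 0.5) (horizontal axis), with the limma 95% interval as a line; pink marks are the 8 genes, green marks the 2 genes of each of 5 other lists with the largest absolute difference on this axis, and filled points have an adjusted p below 0.05. All 8 pink points are open. The green genes were chosen by the difference plotted, so their filled points are no comparison for the pink ones.

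Whether the knockdown difference itself differed between lines was tested as an interaction in limma over all 6 libraries, with 2 residual degrees of freedom. Again 0 of 8 genes were called, where 18.8% of 12717 genes were, 9.99% higher and 8.79% lower in 5637. At an unadjusted p of 0.05, 2 of the 8 passed, HMGCS1 and FDFT1, against 37.1% of all genes. The difference of HMGCS1 from the library labelled sh-NC was 1.63 ± 0.44 log2 units higher in 5637 than in UM-UC-3 (SE, limma adjusted p = 0.0569). That of FDFT1 was 1.54 ± 0.56 higher (SE, limma adjusted p = 0.114). Without UM-UC-3 sh-LNMAT1#2, 3 of the 8 were called, LSS, DHCR7 and FDFT1, at 1.76, 1.86 and 1.93 log2 units, where 32.1% of 12788 genes were. In that fit the lone UM-UC-3 knockdown library is assumed to vary like those of 5637, and leaving out any other knockdown library gave 0 of 8. Every fit of this kind uses the library labelled 5637 sh-NC, and no fit could be made without it. That library carried the marker pattern of UM-UC-3, so knockdown and line cannot be told apart in these estimates.

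How the libraries resembled one another over the 8 genes was then described. Between UM-UC-3 sh-LNMAT1#1 and the library labelled 5637 sh-NC the median absolute log2 difference of the 8 genes was 0.06, with a highest value of 0.29 for DHCR7. Over all genes the same pair differed by a median of 0.15. Between the 5637 knockdown libraries the 8 genes differed by a median of 0.27, most of all INSIG1 by 0.71, and all genes by 0.18. UM-UC-3 sh-NC differed from UM-UC-3 sh-LNMAT1#1 by a median of 0.90 and from UM-UC-3 sh-LNMAT1#2 by 0.32 over the 8 genes. Over all genes these medians were 0.35 and 0.22.

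The genes most like the mean of the 8 across the 6 libraries were, by Pearson r among 5883 genes of at least 5 FPKM, TGFBR2 (0.985), PBK (0.984), CASP8AP2 (0.982), MSMO1 (0.981) and METAP2 (0.972). MSMO1 is an oxidase of sterol synthesis, and measured 35.2 FPKM in UM-UC-3 sh-NC, 12.1 with sh-LNMAT1#1 and 19.3 with sh-LNMAT1#2. In the libraries labelled 5637 it was at 12.4, 9.33 and 10.0 FPKM in the same order. UM-UC-3 sh-NC was highest for all 5. These r values rest on 6 libraries that fall into clusters and share one high library, and are given as a description.

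In the submitted coordinates SQLE lies at chr8:124998497-125022283 and FDFT1 at chr8:11795573-11839309, both on the plus strand. Exons of 5 of the 8 genes overlap 6 genes of the opposite strand, by at most 15.0% of exon bases, for HMGCS1. Those 6 genes were at 1.45 FPKM or less in every library. The library kit keeps strand, but whether counting used it is not given in the sources used here, so that reads in the overlaps could not be assigned for certain.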

How the data were processed

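Total RNA of 6 libraries, 1 per construct and line, had been prepared with a stranded mRNA kit. The submitters' processing notes name HISAT2 and hg38; versions and the counting tool are not given in the sources used here. The values used are the FPKM that the authors deposited, a table with 50869 rows, of which 1 is empty; depth per library was read here from single-exon genes, of whose values at least 99.0% were whole within 0.02 fragments. FPKM already removes depth and length but not composition, and whether it was scaled otherwise is not given in the sources used here. Gene positions were checked against GENCODE 29, in which 50110 identifiers were found.

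Values were taken as log2(FPKM + 0.5), so differences of low genes are understated. Kept were genes whose mean over the libraries compared reached 1 FPKM. Within a line each hairpin was compared with the library labelled sh-NC, with no test, and a gene was counted where each hairpin lay 2-fold to the same side. Across libraries limma 3.58.1 (R 4.3.3; lmFit, eBayes with a trend) was fitted to all genes kept, with Benjamini-Hochberg adjusted p under 0.05. No construct was replicated, so the spread in the line comparison and the interaction is that between the 2 hairpins of a line. In the pooled fit the spread also takes in the difference between lines in the knockdown difference. Scripts were tested on simulated data. Alternatives were pseudocounts of 0.1 and 1, no filter or 5 FPKM, 75th-percentile scaling, a 1.5-fold limit, single hairpins, other covariates and leaving out libraries.

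The 8 genes and the lists were chosen with earlier results of these data known. Named were the 8 genes, LINC01296, the 2 genes of each list with the largest absolute line difference, and the 5 genes most like the mean of the 8 by Pearson r; any other gene named was chosen after its values were seen.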

Additional observations from a re-analysis of the deposited data

Results flagged for a closer look

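For 3 of the 8 genes both hairpins gave a lower level than sh-NC in UM-UC-3 and a higher level than the library labelled sh-NC in 5637, as did 17.6% of 12717 genes. The difference between lines in the knockdown difference was 1.28 log2 units for LSS (limma adjusted p = 0.193), 1.16 for DHCR7 (limma adjusted p = 0.337) and 1.54 for FDFT1 (limma adjusted p = 0.114), so none of the 3 passed the threshold. All 3 rest on 1 library labelled sh-NC per line, and on the library labelled 5637 sh-NC, which carried the markers of UM-UC-3. Knockdown and line cannot be told apart in these values.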

How the results depend on the processing

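In UM-UC-3 HMGCS1 stayed the 1 gene of 8 past the 2-fold limit with both hairpins under the other pseudocounts, filters, scaling and the 1.5-fold limit. With sh-LNMAT1#1 alone 4 genes were. Over all genes, 43 lower and 130 higher in UM-UC-3 became 28 and 80 with a pseudocount of 1, 18 and 69 above 5 FPKM, 289 and 528 at 1.5-fold, 638 and 667 with sh-LNMAT1#1 alone and 169 and 253 with sh-LNMAT1#2 alone, and 203 were higher with a pseudocount of 0.1. In 5637, 1567 lower and 2365 higher became 779 and 1120 above 5 FPKM and 2874 and 3578 at 1.5-fold, and 2367 were lower with no filter. Of the 8 genes 1 (IDI1) was lower and 1 (LSS) higher in 5637 at 1.5-fold, and 1 (IDI1) lower with sh-LNMAT1#1 alone.

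In the pooled fit 0 genes were called except without UM-UC-3 sh-NC (0 to 4025 when leaving out libraries), and 0 of the 8. In the line comparison 4949 genes became 2325 above 5 FPKM, 1 with all 6 libraries as labelled, and 1192 to 5573 when leaving out libraries. Of the 8 genes, 1 (SREBF2) was called with 75th-percentile scaling, where 38.6% of all genes were. With the hairpin number as a replicate block it was 1 (SREBF2), where 5250 genes (40.9%) were called. With 3 UM-UC-3 libraries it was 2 (SREBF2, IDI1), where 42.9% of 12748 genes were. In the interaction 2388 genes became 883 above 5 FPKM and 498 to 4105 when leaving out libraries, and 0 to 3 of the 8 were called. The sign of uncalled estimates turned when libraries were left out, with pooled ranges of -1.54 to 0.093 for HMGCS1, -0.65 to 0.63 for LSS, -0.89 to 0.28 for DHCR7, -0.87 to 0.67 for FDFT1 and -0.25 to 0.081 for INSIG1. In the line comparison HMGCS1 became -0.29 and FDFT1 -0.20 with 3 UM-UC-3 libraries, and HMGCS1 -0.32, INSIG1 0.037 and FDFT1 -0.42 with all 6. Leaving out libraries there gave -0.036 to 0.48 for HMGCS1, -0.080 to 0.052 for SQLE and -0.42 to 0.29 for INSIG1. It gave -0.54 to 0.42 for LSS and -0.31 to 0.49 for FDFT1. DHCR7 kept its sign there but ranged from -1.40 to -0.011. In the interaction INSIG1 ranged from -0.67 to 0.042 and SREBF2 from -0.53 to 0.10. The cause was not tested.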
